A study of Mus musculus with 2 samples.

Results

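Capillary endothelial cells of regenerating mouse muscle were described here in 2 scRNAseq libraries, 1 from tibialis anterior muscle at 2 days post-injury (dpi) and 1 at 7 dpi, each of 1 C57Bl/6 mouse injured with the snake venom toxin notexin, which destroys muscle fibres. Both mice were labelled as female and 7 months old, from which the annotation differed, as given below. The members were the barcodes that the deposited annotation labelled "Endothelial (Capillary)". They numbered 160 of 3537 annotated barcodes at day 2 and 149 of 3416 at day 7, or 309 of 6953 in all. After limits on detected genes, transcripts and mitochondrial share, 159 and 149 of them were kept. No uninjured library was analysed here. The other endothelial labels held 150 and 138 barcodes named Endothelial (Stem), 15 and 26 named Endothelial (Artery), and 12 and 21 named Endothelial (Vein).

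Endothelial cells line blood vessels, and those of the capillaries carry out the exchange of gas, fluid and fuel between blood and muscle. After injury, capillaries sprout. Endothelial cells at the front of a sprout make the peptide apelin (Apln), placental growth factor (Pgf) and angiopoietin-2 (Angpt2), while the cells behind them bear receptors for such signals. Resting muscle capillaries take up fatty acids with the transporter CD36 and the binding protein FABP4, and pass water through the channel aquaporin-1 (Aqp1).

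Since there was 1 library per time point, day, mouse and library cannot be told apart, and no test between the days was possible. All levels below are CPM, the share of a gene in the unique transcript counts summed over the labelled barcodes, scaled to a total of 1000000, with 95% Poisson intervals, and all ratios and shares have 95% exact binomial intervals. These cover counting error only. The labels themselves were assigned by the study from gene expression, so levels in 1 label beside another are a description. The sample labels and the annotation also differed on the animals. The labels gave both mice as female and 7 months old, whereas the annotation gave males of 4 months at day 2 and 7 months at day 7. By the annotation, age thus also differed with day and cannot be told apart from it. Capillary barcodes held 1 and 0 Xist counts and 197 and 167 counts of 4 Y-linked genes. These counts went with the sex in the annotation and not with that in the labels.

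Capillary barcodes were somewhat deeper at day 2, with a median of 6992 counts and 2606 genes against 5444 and 2258 at day 7. Their median mitochondrial shares were 3.77% and 4.04%. Their sums came to 1236248 and 887533 counts. No capillary barcode of 1 library was called in the other, while 4 called barcodes of any kind occurred in both. Of the 12 pan-endothelial markers all were measured. The median barcode held 68 pan-endothelial counts at day 2 and 59 at day 7, and the lowest held 3 and 13. Summed over the 12-gene vein list, capillary barcodes held 451 and 604 CPM against 2440 and 5308 CPM under the vein label. Over the artery list they held 1914 and 2122 CPM against 4703 and 6738 CPM under the artery label, and Cxcl12 alone made up 1630 and 1500 CPM of the capillary sums. The lymphatic list summed to 103 and 83.4 CPM, with 5 and 6 of its 7 genes at 0 counts.

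Transcripts of other cell types were present in part of the barcodes. At least 10 counts of 1 of 7 marker lists of non-endothelial cells occurred in 30 of 159 barcodes at day 2 and in 24 of 149 at day 7. The mural list of pericytes and smooth muscle was reached by 20 and 9 of these and the myofibre list by 5 and 14. The mural sum was 553 and 450 CPM against 187 and 563 CPM in ambient RNA. Red-cell genes summed to 3056 CPM at day 2 and 1078 CPM at day 7, and a single barcode held 46.6% and 55.2% of those counts. Myofibre genes summed to 121 and 3591 CPM, and to 717 and 25176 CPM in the ambient RNA of near-empty barcodes. A single barcode held 40.8% of the myofibre counts of capillary barcodes at day 7. All 6 measured myofibre genes were at least 2-fold higher at day 7. The sums for fibro-adipogenic progenitors (45 and 267 CPM), macrophages (184 and 171 CPM), neutrophils (53 and 0 CPM), lymphocytes (16 and 3 CPM), myogenic cells (33 and 89 CPM) and glia (8 and 3 CPM) lay below those of the ambient RNA, except that of lymphocytes at day 2. Neutrophil genes were all 5 at 0 counts at day 7. The results were recomputed without the 54 barcodes of mixed content and from the SoupX values, in which ambient RNA was subtracted. In the latter, 256 genes were higher and 316 lower at day 7, against 272 and 309 reported below.

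The capillary share of annotated cells did not differ between the libraries beyond counting error. Capillary barcodes were 159 of 3178 kept cells with a type at day 2, or 5.0% (4.27% to 5.82%), and 149 of 3196 at day 7, or 4.66% (3.96% to 5.45%). The difference was -0.34 percentage points (-1.42 to 0.74). Among cells with an endothelial label the share was 47.3% (41.9% to 52.8%) of 336 and 44.7% (39.3% to 50.3%) of 333. Smooth Muscle barcodes bear on these denominators. Of 304 and 232 barcodes labelled Smooth Muscle, 289 and 195 held at least 10 pan-endothelial counts, and 89 and 66 of those held at most 2 counts of the mural list.

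The markers given for the label separated into a pair that was higher at day 2 than at day 7 and a pair that was higher at day 7. Apln (ENSMUSG00000037010, X:48025146-48034853, minus strand, coordinates of mm10) was at 1378 CPM (1313 to 1445) at day 2 and at 76.6 CPM (59.5 to 97.1) at day 7, 18.0-fold lower. Pgf (ENSMUSG00000004791, 12:85166635-85177790, minus strand) was at 1181 CPM (1121 to 1243) and 10.1 CPM (4.64 to 19.2), 116-fold lower at day 7. In contrast, Car4 (ENSMUSG00000000805, 11:84957786-84966044, plus strand), which encodes a carbonic anhydrase on the cell surface, was at 29.1 CPM (20.4 to 40.3) and 141 CPM (117 to 168), 4.84-fold higher. Aqp1 (ENSMUSG00000004655, 6:55336432-55348555, plus strand) was at 1554 CPM (1485 to 1625) and 4442 CPM (4304 to 4582), 2.86-fold higher. No pair of these intervals overlapped.

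None of the 4 markers was confined to the capillary label. Under the stem label, Apln was at 900 CPM at day 2 and 17.2 CPM at day 7, Pgf at 971 and 10.8 CPM, Car4 at 35.5 and 144 CPM, and Aqp1 at 1824 and 4451 CPM. The artery label was lower for all 4 at both times, with 15.8 and 0 CPM of Apln and 797 and 1138 CPM of Aqp1. Under the vein label Aqp1 was at 2264 and 4556 CPM, and Apln was at 267 and 94.8 CPM, the second above its capillary level, but with intervals that overlapped.

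**Figure D1:**
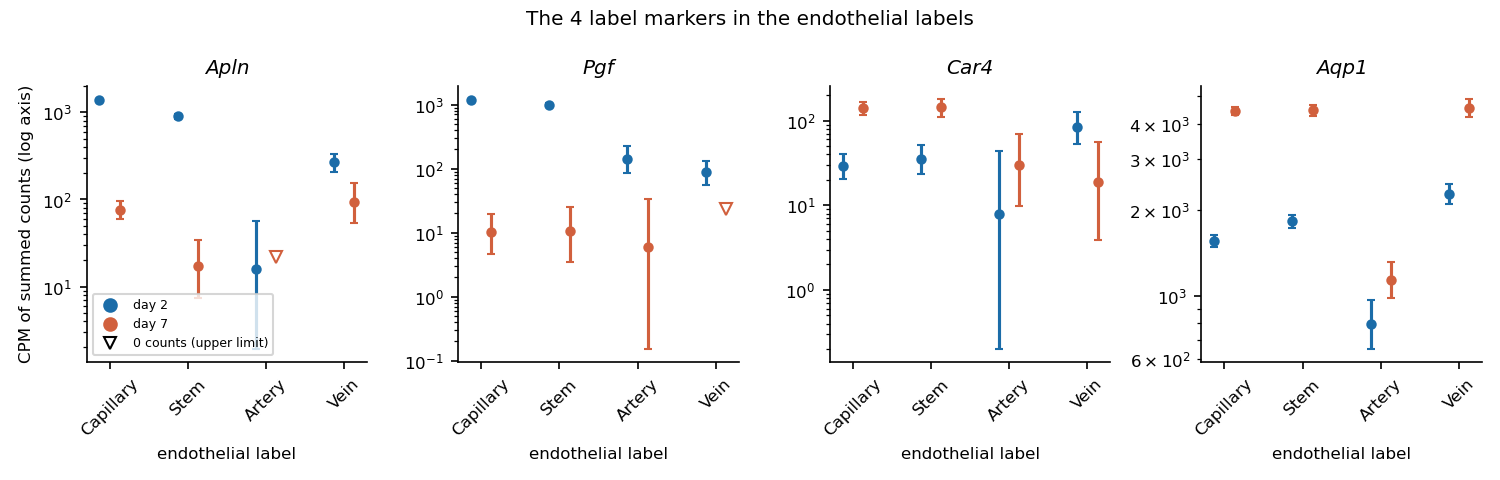
Levels of the 4 label markers in each endothelial label (x axis) in CPM of summed counts on a log axis, day 2 in blue and day 7 in orange. Bars are 95% Poisson intervals and open triangles mark the upper limit where the count was 0. Apln and Pgf were higher at day 2 and Aqp1 at day 7 under the capillary and stem labels alike.

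Single barcodes showed the same split. To compare barcodes at equal depth, each was thinned to 2000 counts, which left out 4 barcodes at day 2 and none at day 7. Apln was then detected in 94 of 155 barcodes at day 2, or 60.6% (52.5% to 68.4%), and in 13 of 149 at day 7, or 8.72% (4.73% to 14.5%). Pgf was detected in 59.4% (51.2% to 67.2%) and 1.34% (0.163% to 4.76%). Car4 went the other way, with 4.52% (1.83% to 9.08%) and 20.8% (14.6% to 28.2%), but at 2 or more counts its shares were 2.58% and 3.36%. Aqp1 was detected in 77.4% (70.0% to 83.7%) and 92.6% (87.2% to 96.3%). Without thinning, the shares were 69.8% and 14.1% for Apln, 71.7% and 3.36% for Pgf, 15.1% and 41.6% for Car4, and 90.6% and 94.6% for Aqp1.

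T, B and NK cells should lack these transcripts, and they give the background of free RNA and mixed barcodes. Without thinning and at median depths of 3137.5 and 3625 counts, lymphocyte barcodes held Apln in 8.0% and 3.36%, Pgf in 10.0% and 1.68%, Car4 in 1.0% and 1.92%, and Aqp1 in 13% and 11.5%. Part of these lymphocyte barcodes, 16 of 100 and 67 of 417, held at least 10 pan-endothelial counts. In monocytes and macrophages, where 2 of 1292 and 2 of 757 barcodes did so, the corresponding shares were 2.55% and 0.264% for Apln and 4.33% and 0.396% for Pgf, at median depths of 11696 and 8546 counts. Pgf in capillary barcodes at day 7 had an interval (1.10% to 7.66%) that held the lymphocyte share but lay above the monocyte and macrophage share, so it was not detectable above the higher of these backgrounds.

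At day 2, Apln and Pgf were often found in the same barcode. Of 155 thinned barcodes, 73 held both, 21 only Apln, 19 only Pgf and 42 neither. Angpt2 was held by 54.3% of the barcodes with Apln and by 16.4% of those without. Barcodes differ in cell size and quality even at equal counts, so these shares are a description. At day 7, 7 of the 13 barcodes with Apln held its receptor Aplnr, against 44.9% of those without Apln.

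**Figure D2:**
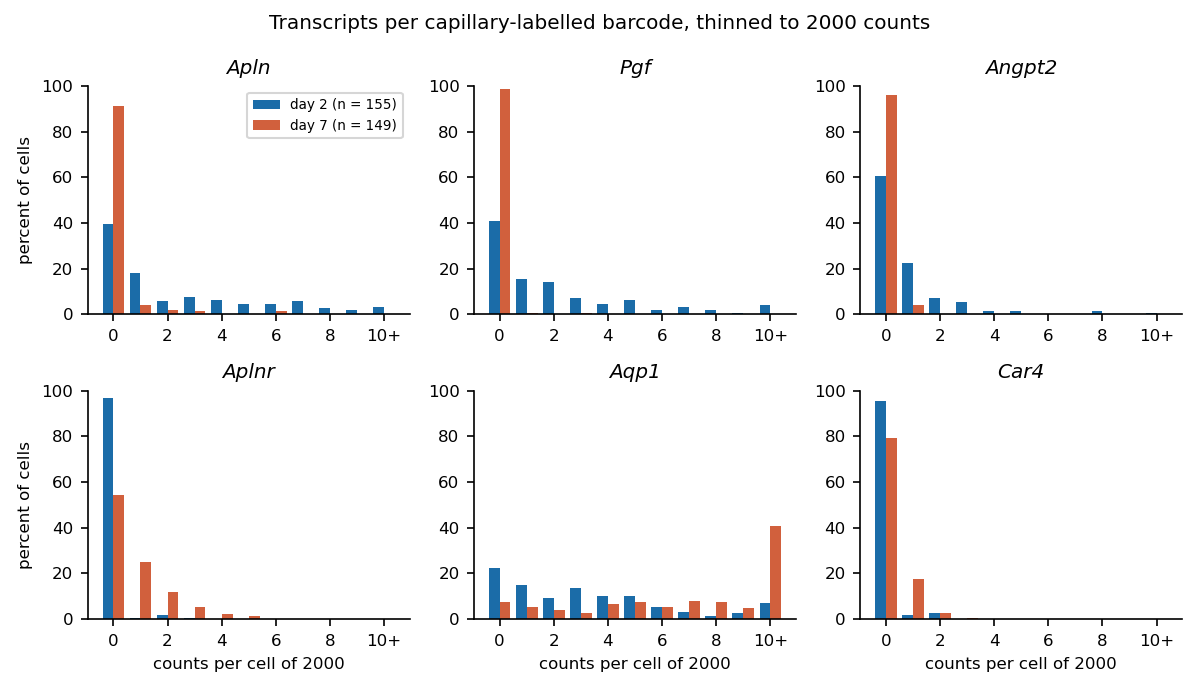
Shares of capillary barcodes (y axis, percent) by the number of transcripts per barcode after thinning to 2000 counts (x axis, 10 or more pooled), for 155 barcodes at day 2 (blue) and 149 at day 7 (orange). Most day 7 barcodes held no Apln, Pgf or Angpt2, and Aplnr was held by 3.23% of barcodes at day 2 and 45.6% at day 7.

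Hardly any gene was 2-fold apart in the same direction in both libraries between the capillary and stem labels. Genes apart in a single library were not counted here, such as Edn1 at day 7, whose levels are given below. Genes were called measured where 1 of the groups compared held at least 100 counts and at least 20% of its barcodes held the transcript. Of 2324 genes measured in these 2 labels, 1 (0.043%) was at least 2-fold apart in the same direction in both libraries, and this was the myofibre gene Acta1. Against the artery label 45 of 2325 genes (1.94%) were 2-fold apart in both libraries, and against the vein label 87 of 2326 (3.74%). Those labels rest on 12 to 26 barcodes. The median stem barcode held 4882.5 and 3186 counts.

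Against the other endothelial labels summed, 3 of 2431 genes (0.123%) were at least 2-fold higher in capillary barcodes in both libraries, and 8 (0.329%) were at least 2-fold lower. The 3 were Apln, Adh1 and Acta1. None of the 3 was 2-fold higher in both libraries without the barcodes that held other cells' transcripts, where 1915 genes were measured. Apln had log2 ratios of 1.06 (0.94 to 1.18) at day 2 and 1.4 (0.70 to 2.15) at day 7. Its day 2 ratio was 0.82 without the barcodes that held other cells' transcripts. Adh1, an alcohol dehydrogenase that oxidises retinol, had ratios of 1.62 (0.11 to 3.43) and 1.09 (0.61 to 1.59), with 12.9 and 137 CPM in capillary barcodes and 4.21 and 64.5 CPM in the others. Its day 7 ratio was 0.86 without the barcodes of mixed content and 0.95 as a mean over barcodes.

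The 8 lower genes were largely ones high under the artery or vein label. Fbln5, an elastic fibre protein, was at 3.24 and 30.4 CPM in capillary barcodes and at 182 and 1030 CPM under the artery label. Sema3g, a semaphorin of arteries, was at 61.5 and 49.6 CPM against 616 and 695 CPM under the artery label. Plvap, the protein of the diaphragms of fenestrated vessels, was at 20.2 and 137 CPM against 683 and 2168 CPM under the vein label. Vwf, the carrier of clotting factor VIII, was at 40.4 and 82.3 CPM against 161 and 1131 CPM there. Igfbp4, Clu, Rbp7 and Scd2 completed the 8. Day 2 ratios fell under 2-fold for Vwf (-0.86) and Scd2 (-0.80) without the barcodes of mixed content. As a mean over barcodes, 5 of the 8 remained, with day 2 ratios of -0.99 for Sema3g, -0.84 for Vwf and -0.68 for Scd2.

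Between day 2 and day 7 the transcriptome of capillary barcodes differed widely. Of 2322 measured genes, 272 (11.7%) were at least 2-fold higher at day 7 and 309 (13.3%) at least 2-fold lower. The median log2 ratio over all measured genes was -0.18. With the levels rescaled so that this median was 0, 350 were higher and 233 lower, so the share of higher genes among those called moved from 46.8% to 60.0%. The ratios below are to be read against that shift. The counts of every gene list are to be read against the 11.7% higher and 13.3% lower over all measured genes. Both describe capillary barcodes alone, and the other endothelial labels are compared with them further below.

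**Figure D3:**
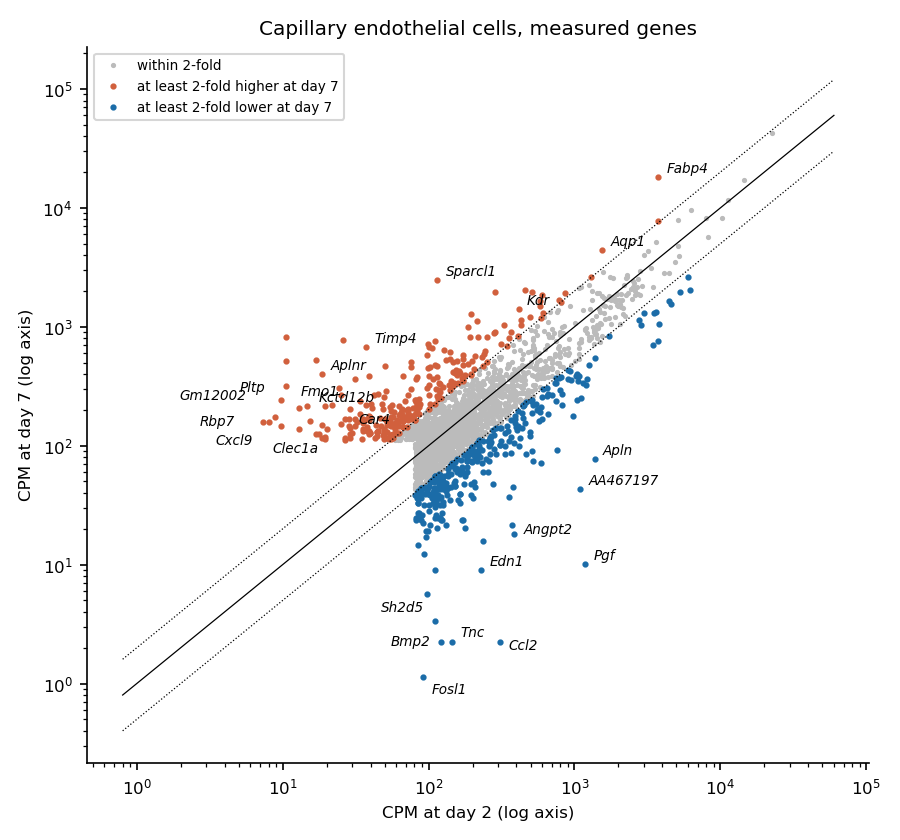
CPM at day 7 (y axis) against CPM at day 2 (x axis), both on log axes, for the 2322 genes measured in capillary barcodes. Orange points are the 272 genes at least 2-fold higher at day 7, blue points the 309 at least 2-fold lower, and dotted lines mark 2-fold. Pgf, Ccl2 and Fosl1 lie farthest below the diagonal, and Sparcl1, Aplnr and Timp4 far above it.

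Besides Apln and Pgf, the 10 genes with the lowest ratios held the secreted signals Angpt2, Edn1 and Bmp2. Angpt2, the ligand that opposes angiopoietin-1 on the receptor TIE2, was at 383 CPM (349 to 419) and 18.0 CPM (10.3 to 29.3), 21.2-fold lower. Edn1, the vasoconstrictor endothelin-1, was at 229 CPM (203 to 257) and 9.01 CPM (3.89 to 17.8), 25.4-fold lower. Bmp2, a bone morphogenetic protein, held 150 counts in 40 barcodes at day 2 and 2 counts at day 7, a log2 ratio of -5.75 (-8.81 to -3.87) from the counts as they stand. Rankings took counts below 3 as 3, which gives -5.17 for Bmp2.

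Among the receptors, Aplnr, the receptor of apelin, was at 18.6 CPM (11.8 to 27.9) and 402 CPM (362 to 446), 21.6-fold higher at day 7. Kdr, which encodes the main VEGF receptor VEGFR2, was at 415 and 1398 CPM with a log2 ratio of 1.75 (1.60 to 1.90). Its coreceptor Nrp1 was at 582 and 1650 CPM, with a ratio of 1.5 (1.37 to 1.63). Tie1 was at 154 and 434 CPM, and the phosphatase Ptprb, which acts on TIE2, at 497 and 1206 CPM. Tek, the gene of TIE2, was at 101 and 203 CPM, with a ratio of 1.0 (0.67 to 1.35) at the 2-fold line. Flt1 and Flt4, the other VEGF receptors, had ratios of 0.96 and -0.20. In the list of VEGF and angiopoietin signalling, 7 of 12 measured genes of 16 were at least 2-fold higher and 3 were lower (11.7% and 13.3% over all genes), with a median log2 ratio of 1.06. All 3 lower genes were ligands, Pgf, Angpt2 and Apln, and were put on the list with these levels known. Vegfa itself held 44 and 4 counts and was not measured.

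Of the list for tip cells and sprouting, 5 of 14 measured genes were lower, namely Apln, Pgf, Angpt2, Cxcr4 and Adm, and 1 was higher, Plvap, against 13.3% lower and 11.7% higher over all genes. Its median log2 ratio was -0.35, and the first 3 of these genes are also on the list above. Cxcr4, the receptor of the chemokine CXCL12, was at 116 and 42.8 CPM, at or below the 148 and 72 CPM of ambient RNA. Cxcl12 itself was at 1630 and 1500 CPM. The Notch ligand Dll4, which restrains sprouting in neighbouring cells, was at 274 and 169 CPM, and Notch1 was at 441 and 215 CPM, with a log2 ratio of -1.03 (-1.28 to -0.79). Of 5 measured Notch genes, Notch1 was the only one 2-fold lower and none was 2-fold higher.

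In the fatty acid list, 8 of 12 measured genes of 18 were at least 2-fold higher and 1 was lower (11.7% and 13.3% over all genes), with a median log2 ratio of 1.71. Fabp4 was at 3742 and 18031 CPM with a ratio of 2.27 (2.22 to 2.32), and all 159 and 149 barcodes held it. Cd36 was at 284 and 1957 CPM, with a ratio of 2.79 (2.62 to 2.95). Lpl, the lipase that frees fatty acids from lipoproteins, was at 101 and 676 CPM, although macrophages and other cells also make it and ambient RNA held 57 and 242 CPM. Gpihbp1, which anchors that lipase on capillaries, was at 866 and 1936 CPM. The transcription factor Tcf15, which drives fatty acid uptake in muscle endothelium together with MEOX2, was at 188 and 992 CPM, and Meox2 was at 176 and 294 CPM. Plin2, a lipid droplet protein, was the lower one, at 80.9 and 38.3 CPM, below the 333 and 148 CPM of ambient RNA.

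In the transport list 7 of 10 measured genes of 13 were higher and none lower, with a median of 1.30, against 11.7% higher over all genes. They were Aqp1, Car4, the glycerol channel Aqp7 at 37.2 and 221 CPM, the nucleoside carrier Slc28a2 at 17.8 and 125 CPM, Slc6a6, Slc9a3r2 and Abcg2. Slc2a1, the glucose transporter GLUT1, was not measured but held 72 counts at day 2 and 11 at day 7. A wider list of 14 capillary markers, which shares genes with these lists, had 10 of 12 measured genes higher and none lower, with a median of 2.01 and the same 11.7% as background. Timp4, an inhibitor of metalloproteinases, showed the highest ratio in it, at 37.2 and 673 CPM.

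**Figure D4:**
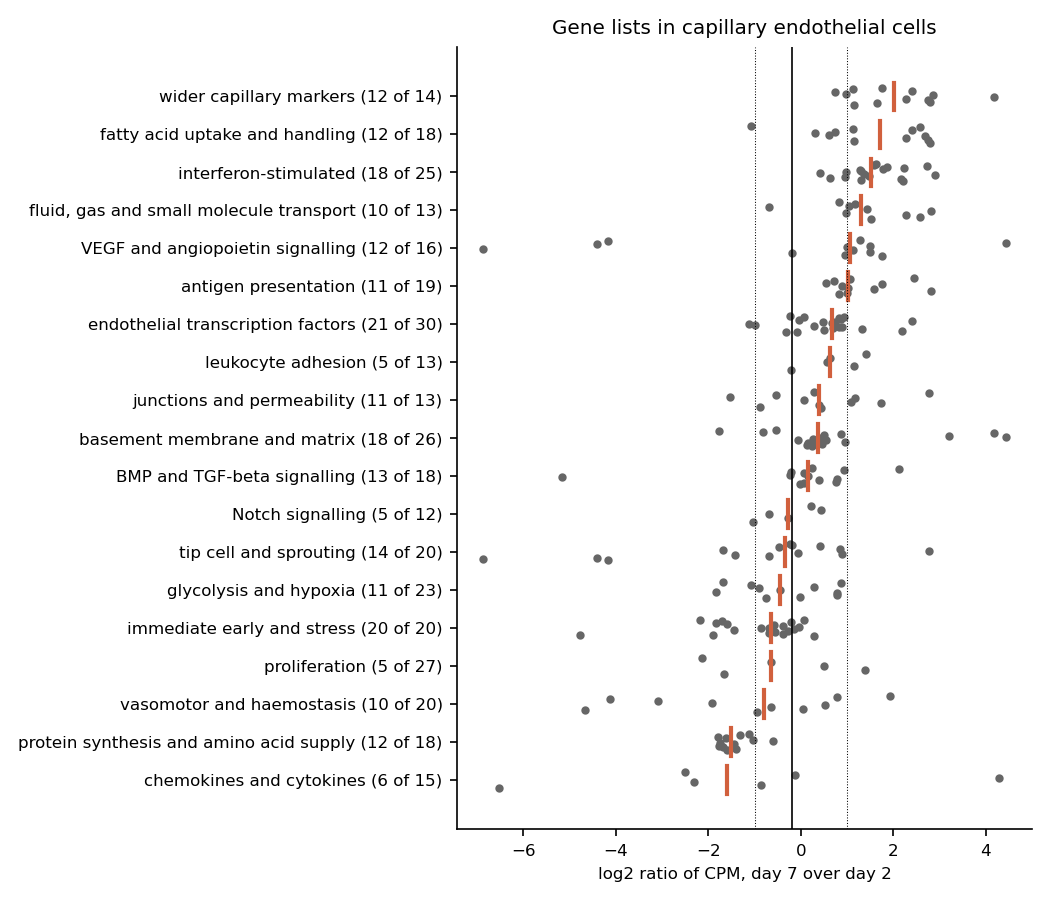
Log2 ratios of CPM, day 7 over day 2 (x axis), of the measured genes (grey points) of each gene list in capillary barcodes, with the list's median in orange and the number measured of the number listed beside its name. The solid line is the median of all 2322 measured genes (-0.18) and the dotted lines mark 2-fold.

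Interferon-stimulated genes were higher at day 7 in 14 of 18 measured genes of 25 (11.7% over all genes), with none lower and a median log2 ratio of 1.52. The list summed to 5551 and 11056.5 CPM in capillary barcodes and to 2076 and 2996 CPM in ambient RNA. Iigp1, an immunity-related GTPase, was at 76.0 and 505 CPM with a ratio of 2.73 (2.41 to 3.07), and was held by 28 and 98 barcodes. Without thinning, lymphocyte barcodes held it in 0.0% and 10.6%, and monocytes and macrophages in 0.387% and 15.3%. Ifit2 was at 17.0 and 126 CPM, with 42.9% of its day 2 counts in 1 barcode. Levels were also higher for Gbp7, at 72.8 and 266 CPM, and Irf7, a transcription factor of the interferon response, at 83.3 and 375 CPM. The chemokine Cxcl9, induced by interferon gamma, was at 8.09 and 158 CPM and ranked among the 10 highest ratios. Of the antigen presentation list, 7 of 11 measured genes of 19 were higher (11.7% over all genes) and none lower, with a median of 1.01, among them the immunoproteasome subunit Psmb9 at 34.0 and 185 CPM. Class I genes H2-K1 and H2-D1 were at 1263 and 2251 CPM and at 1297 and 2606 CPM. Class II genes such as H2-Aa, at 24.3 and 38.3 CPM, lay far below the 350 and 1440 CPM of ambient RNA.

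The interferon-stimulated response element is a known sequence of promoters of such genes, and its core was searched here as 2 copies of GAAA with any 2 bases between them, on both strands of the 250 bases before each start site, from RefSeq on GRCm38.p6. Matches can overlap each other. Of 32851 single windows of all genes, 2.98% held it. Shares of genes were counted where any of a gene's windows held the letters, and some genes had several windows. They are thus not on the same footing as shares of windows. Of 1817 measured genes with a window, 3.74% held it. Of the 14 measured genes of the interferon list with a window, 9 held it. Of genes with a window that were at least 2-fold higher at day 7, 17 of 198 held it, and of those at least 2-fold lower, 5 of 237. A match is a description of letters and not a bound site. Of 10 genes of the interferon list with a window that were at least 2-fold higher at day 7, 7 held a match. Ifit2, Irf7 and Irf1 held none. A sample of 4 windows chosen from those with a match is shown. They are from 2 Ifit and 2 GTPase genes that were higher at day 7, with matches in capitals.
Ifit1, chr19:34640639-34640888, plus strand, log2 ratio 1.48: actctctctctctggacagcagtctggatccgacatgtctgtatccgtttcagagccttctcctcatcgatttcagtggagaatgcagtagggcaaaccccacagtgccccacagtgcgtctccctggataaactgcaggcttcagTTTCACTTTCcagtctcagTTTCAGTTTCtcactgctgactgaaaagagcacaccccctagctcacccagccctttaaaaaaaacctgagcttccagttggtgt
Ifit3, chr19:34583279-34583528, plus strand, log2 ratio 1.37: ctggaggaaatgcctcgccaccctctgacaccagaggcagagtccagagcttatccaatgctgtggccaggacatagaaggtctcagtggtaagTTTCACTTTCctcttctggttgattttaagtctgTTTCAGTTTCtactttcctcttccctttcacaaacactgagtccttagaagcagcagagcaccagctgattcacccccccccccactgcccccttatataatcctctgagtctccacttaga
Gbp7, chr3:142530086-142530335, plus strand, log2 ratio 1.87: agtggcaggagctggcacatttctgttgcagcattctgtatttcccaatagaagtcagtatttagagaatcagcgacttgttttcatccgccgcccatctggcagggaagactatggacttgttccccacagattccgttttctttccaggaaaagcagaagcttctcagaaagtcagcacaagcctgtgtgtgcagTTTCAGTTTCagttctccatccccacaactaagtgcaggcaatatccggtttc
Irgm1, chr11:48871421-48871670, minus strand, log2 ratio 1.57: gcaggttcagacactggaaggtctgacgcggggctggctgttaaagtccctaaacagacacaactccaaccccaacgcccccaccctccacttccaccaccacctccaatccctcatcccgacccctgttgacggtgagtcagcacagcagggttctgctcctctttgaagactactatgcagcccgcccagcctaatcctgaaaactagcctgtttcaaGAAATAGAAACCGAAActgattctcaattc
In Ifit1 the matches began 104 and 85 bases before the start site, and in Irgm1 overlapping matches began 30 and 24 bases before it. The AP-1 letters TGANTCA and the hypoxia response core ACGTG were searched in the same way, and no window of Apln, Pgf, Car4 or Aqp1 held any of the 3. AP-1 letters were in 6.75% of all windows. Counted per gene with a window, they were in 6.0% of measured genes, 7.17% of genes lower at day 7 and 9.09% of genes higher. ACGTG was in 16.6% of all windows. Per gene it was in 30.4% of the lower and 16.7% of the higher genes, against 26.5% of all measured genes.

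Genes of protein synthesis were lower at day 7 almost throughout. Of 12 measured genes of that list, 11 were at least 2-fold lower (13.3% over all genes) and none higher, with a median log2 ratio of -1.52. Ncl and Npm1, nucleolar proteins of ribosome assembly, were at 1052 and 348 CPM and at 1029 and 389 CPM. The translation factor Eif4a1 was at 1211 and 362 CPM, the nucleolar Nop58 at 336 and 99.2 CPM, and the polyamine enzymes Odc1 and Srm at 309 and 101 CPM and at 133 and 38.3 CPM. Eif5a, with a ratio of -0.59, was the exception. Myc, a known inducer of these genes, was at 123 and 27.0 CPM.

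Immediate early and stress genes, which also respond to tissue dissociation, were lower in 7 of 20 genes and higher in none, with a median of -0.63, against 13.3% lower over all genes. Hspa1a, a heat-shock protein, was at 6148 and 2034 CPM, and Fosb was at 1203 and 321 CPM. Fosl1 held 114 counts in 60 barcodes at day 2 and 1 count at day 7, a log2 ratio of -6.35 (-11.67 to -3.85), or -4.77 with the day 7 count taken as 3. Fos, in contrast, was at 821 and 995 CPM, but in fewer barcodes, 134 of 159 and 74 of 149. At day 7 the median barcode held 0 Fos counts, against 5 at day 2.

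Cell division genes were near 0 in capillary barcodes at both times. The 11 mitotic genes, among them Mki67 and Top2a, summed to 23 and 21 counts over all barcodes, and none of 155 or 149 thinned barcodes held 3 or more of them. The exact intervals of these shares of 0 reached up to 2.35% and 2.45%, which is not a limit on dividing cells. Without thinning, 0 of 159 and 1 of 149 barcodes held 3 or more counts, and 3 and 5 held 2 or more. The 27-gene proliferation list gave 3 or more counts in 124 of 155 thinned barcodes, or 80.0% (72.8% to 86.0%), at day 2 and in 76 of 149, or 51.0% (42.7% to 59.3%), at day 7. H2afz, Cdkn1a, Ccnd1 and Pcna held 84.8% and 77.9% of the counts of that list. Cdkn1a, a brake of the cell cycle, was at 1113 and 254 CPM. Ccnd1, the cyclin of early G1, was at 198 CPM (174 to 225) and 516 CPM (470 to 566), with a single barcode holding up to 36 counts. Of the 5 measured genes of the list, Ccnd1 was higher and Pcna and Cdkn1a were lower.

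Genes of vessel tone and clotting were lower in 4 of 10 measured genes, against 13.3% over all genes, a share that also applies to the glycolysis list below. They included Edn1, Procr, the receptor of protein C, and Plaur, the urokinase receptor, at 382 and 45.1 CPM. Ramp2, which pairs with the receptor of adrenomedullin, was the higher one, at 217 and 824 CPM. Adm, adrenomedullin itself, was at 86.6 and 27.0 CPM. Nos3, endothelial nitric oxide synthase, was at 247 and 127 CPM with a ratio of -0.95 (-1.28 to -0.64). In the glycolysis and hypoxia list Gapdh, Hif1a and Adm were lower, 3 of 11 measured genes, and none was higher. Gapdh was at 661 and 186 CPM. Epas1, the HIF2A gene of endothelium, was at 554 and 1017 CPM.

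The matrix list was mostly within 2-fold, with 3 of 18 measured genes higher and 1 lower, near the 11.7% and 13.3% over all genes. Sparcl1, a secreted matricellular protein, had one of the largest ratios of all genes, at 115 CPM (96.7 to 135) and 2480 CPM (2377 to 2586), and was held by 58 of 159 and 149 of 149 barcodes. Col15a1, a basement membrane collagen, was at 50.2 and 465 CPM, and Timp4 was the third. The protease gene Adamts1 was lower, at 1141 and 334 CPM. The basement membrane collagens Col4a1 and Col4a2 had ratios of 0.25 and 0.13. Of the 11 measured junction genes, 4 were higher (Jam2, Jam3, Tjp1 and Plvap). Cdh5, the VE-cadherin of all endothelium, was at 1420 and 1927 CPM and Cldn5 at 1543 and 839 CPM, with ratios of 0.44 and -0.88.

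Among transcription factors of endothelium, 3 of 21 measured genes were higher, Sox18, Fli1 and Tcf15, and 1 was lower, Klf6, with a median of 0.68. The share of higher genes was near the 11.7% over all genes. Sox18 was at 98.7 and 451 CPM. Klf2, a factor of cells under flow, was at 667 and 817 CPM, and Klf4 was at 1079 and 540 CPM with a ratio of -1.0 (-1.15 to -0.85) at the 2-fold line. In the BMP and TGF-beta list 11 of 13 measured genes lay within 2-fold, with Bmp2 lower and Ltbp4 higher. Of 5 measured genes of leukocyte adhesion, Icam2 and Cd47 were higher, while Sele, Selp and Vcam1 held at most 5 counts at either time.

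In the list of chemokines and cytokines, which summed to 2400.0 and 1901 CPM, most counts were those of Cxcl12. Ccl2, which draws monocytes, ranked second among the lowest ratios with its day 7 count taken as 3, a log2 ratio of -6.52. It was at 311 and 2.25 CPM, but 79.4% of its day 2 counts came from 1 barcode and ambient RNA held 1125 CPM. Without that barcode the log2 ratio, with the same floor, was -4.25. In all, 3 of 6 measured genes of the list were lower and 1 was higher (13.3% and 11.7% over all genes), with a median of -1.59 that became 1.89 without the barcodes holding other cells' transcripts, where fewer genes were measured, and -0.72 in SoupX values. Il6 was at 96.3 and 16.9 CPM, against 97 and 27 CPM in ambient RNA.

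The other lowest ratios were those of Tnc, a matrix protein of injured tissue, with 179 and 2 counts, of Sh2d5, with 136 and 3 counts, and of AA467197, at 1098 and 42.8 CPM. The other highest ones included Pltp, which transfers phospholipids, at 9.71 and 241 CPM, although ambient RNA held 165 CPM at day 7. Rbp7, a retinol-binding protein, was at 7.28 and 159 CPM, and Fmo1, a monooxygenase, at 12.9 and 206 CPM. Clec1a, Kctd12b and Gm12002 completed the 10, at 148, 214 and 176 CPM at day 7.

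All 18 lists of gene function had sums that differed between the days in the same direction under the stem and capillary labels. Fatty acid genes summed to 9998 and 29274 CPM under the stem label and to 8651 and 30134 CPM in capillary barcodes. Interferon-stimulated genes summed to 5966 and 10785 CPM against 5551 and 11056.5 CPM. Protein synthesis genes summed to 5418 and 1922 CPM against 5983 and 2240 CPM. A sum rests most on its highest genes. Some of the largest differences of single genes between the days were of similar size under the other endothelial labels, which come from the same 2 libraries. Pgf had a log2 ratio of -6.48 there and -6.86 in capillary barcodes, Apln -4.50 and -4.17, and Sparcl1 4.67 and 4.43. Edn1 was the clearest exception. Its ratio was -0.50 (-0.88 to -0.14) under the other labels, at 165 and 116 CPM, and the difference to the capillary ratio was -4.16 (-5.24 to -3.09). Under the stem label alone Edn1 was at 197 and 75.3 CPM, and under the artery label at 237 and 252 CPM. Angpt2 differed less, with -2.34 under the other labels and a difference of -2.07 (-2.93 to -1.21). Ccnd1 was at 327 and 313 CPM under the other labels, a ratio of -0.07 against 1.38 in capillary barcodes, with a difference of 1.45 (1.13 to 1.77).

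Aplnr and Col15a1 had lower ratios under the other labels summed, 2.24 and 1.51, but under the stem label alone the ratios were 4.04 (3.37 to 4.78) and 3.88 (3.24 to 4.59) against 4.43 (3.83 to 5.11) and 3.21 (2.83 to 3.62) in capillary barcodes, with overlapping intervals. Under the vein label Aplnr was at 318 and 828 CPM, above its capillary level at both times. Plvap, in contrast, had a ratio of 0.18 under the stem label and of 2.76 (2.14 to 3.45) in capillary barcodes, where 9 of 159 and 32 of 149 barcodes held it. A single barcode held 40.0% of its 25 counts at day 2. All these intervals treat the barcodes of a label as 1 sum and leave out the spread between mice.

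**Figure D5:**
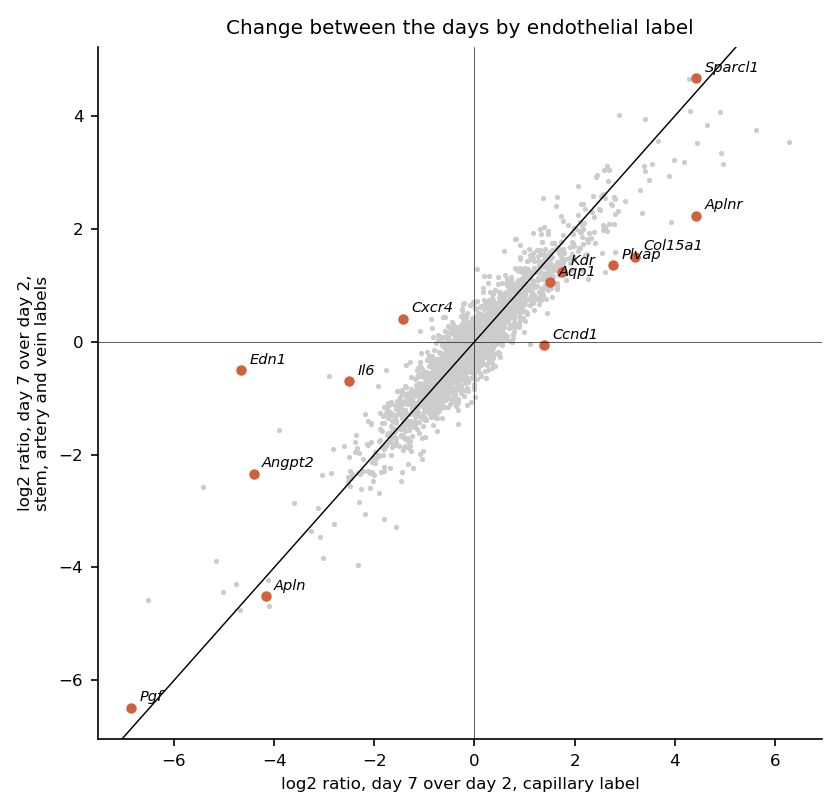
Log2 ratio of CPM, day 7 over day 2, in capillary barcodes (x axis) and in the stem, artery and vein labels summed (y axis), for the genes measured in capillary barcodes (grey) with genes named in the text in orange. The line marks equal ratios. Pgf, Apln and Sparcl1 lie near it, and Edn1 lies far above it.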

How the data were processed

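The study prepared 10x Chromium v3 libraries of dissociated tibialis anterior muscle, 1 mouse per time point. Per the labels, reads were aligned to mm10 with Cell Ranger 3.1.0 (the matrix headers name 3.0.1) and analysed with Seurat 3.1.5. The authors deposited filtered and raw matrices of unique molecular identifier counts, SoupX matrices of expected counts corrected for ambient RNA, and an annotation table. The study had removed doublets in making that table, and no doublet caller was run here.

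Libraries held 41123913 and 32356088 counts in 4836 and 4889 called barcodes. Barcodes were kept when annotated and, in SoupX values, at 750 genes, 1000 transcripts and at most 30% mitochondrial. Uncorrected counts were summed per label and scaled to CPM (Python 3.11.15, numpy 2.4.6, scipy 1.17.1). Genes were measured at 100 counts and 20% of barcodes in 1 group. Differences of at least 2-fold were counted with counts below 3 taken as 3. Poisson, Clopper-Pearson and conditional binomial intervals were exact. Intervals of a difference between ratios were normal approximations on the log scale. Ambient RNA came from raw barcodes of 1 to 100 counts. The code was tested on simulated counts.

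Named genes were list members, the 10 highest and 10 lowest day ratios, and up to 8 per direction against the other endothelial labels, leaving out mitochondrial, ribosomal, haemoglobin and myofibre genes. A few others are named in closing comparisons after their values were seen. Coordinates are of GENCODE genes on mm10. Members and lists were chosen with earlier results of these data known. The authors' other annotation columns were not used. Results on a few list members are not reported here.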

Additional observations from a re-analysis of the deposited data

Results flagged for a closer look

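Fos and Ldha were the measured genes of the lists whose ratio between the days had opposite signs in capillary barcodes and under the other endothelial labels, with both intervals clear of 0. For Fos the log2 ratio was 0.28 (0.15 to 0.41) in capillary barcodes and -0.51 (-0.65 to -0.36) under the other labels. Ambient RNA held 361 and 823 CPM of Fos, and the part of it in this difference was not tested. For Ldha, a glycolytic enzyme, it was 0.29 (0.07 to 0.51) and -0.22 (-0.44 to -0.0017), with 304 and 551 CPM in ambient RNA. The upper bound under the other labels lies nearer to 0 than the median ratio of -0.18 over all genes measured in capillary barcodes, and a shift of that size would take the Ldha interval across 0. Neither difference was tested across mice.

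Endothelial transcripts also occurred in called barcodes that the annotation left out. Of 680 such barcodes within the limits at day 2, 208 held at least 10 pan-endothelial counts, and 115 of these also held at least 3 counts of Apln and Pgf. At day 7 the numbers were 199 of 477 and 12. At least 10 counts of another cell type's list occurred in 61 of the 208 and 45 of the 199.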

How the results depend on the processing

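Of 154 recomputed day ratios of named genes and label markers, 149 stayed within the interval of the reported value and none changed sign, with counts below 3 taken as 3. The other 5 were 3 of Aqp1 and 2 of Ccl2. Of 120 ratios to the other endothelial labels 114 did so, and for Apln at day 2 the ratio was 0.64 as a mean over barcodes and 0.82 without barcodes of mixed content, both under 2-fold. Of 120 list medians, 2 changed sign without the barcodes holding other cells' transcripts, an alternative chosen after seeing the data (chemokines, from -1.59 to 1.89, and BMP and TGF-beta, from 0.15 to -0.01), and 5 others crossed 2-fold. Genes at least 2-fold higher and lower at day 7 numbered 677 and 705 at 30 counts in 10% of barcodes, and 1288 and 1080 at 10 counts with no limit on barcodes, where more genes were measured. Genes higher and lower than in the other endothelial labels numbered 6 and 34, and 32 and 74, at those limits. Without barcodes of mixed content none was higher. The other settings left these counts within 1.5 times the reported ones. Detection differences between the days at 2 or more counts were -37.9 percentage points for Apln, -43.2 for Pgf, 0.78 for Car4 and 24.7 for Aqp1, against -51.9, -58.0, 16.3 and 15.2 reported. Without thinning they were -68.3 for Pgf, 26.5 for Car4 and 4.06 for Aqp1. The share with proliferation counts differed by -29.0 points, by -14.6 at 2 counts, by -8.10 without thinning and by 0 for mitotic genes alone, also added later. For these moved values the cause was not tested. No paired analysis was possible because each time point had 1 library. Depth limits Pgf, Edn1, Bmp2, Ccl2, Tnc, Sh2d5 and Fosl1 at day 7, with at most 9 counts each.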

Other observations

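Capillary-like transcripts under the Smooth Muscle label were high. Summed over that label, Apln was at 700 CPM at day 2 and 45.4 CPM at day 7, Pgf at 550 and 22.1 CPM, and Aqp1 at 1161 and 2783 CPM. The median barcode there held 109 and 90 pan-endothelial counts, more than the 68 and 59 of capillary barcodes, at median depths of 13232 and 8635.5 counts. The mural list reached at least 10 counts in 177 of 304 and 121 of 232 of these barcodes.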
